A study of Mus musculus with 4 samples.

Results

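The genes described here are named for calcium channels, pumps and exchangers, their auxiliary subunits and store sensors. Their RNA was measured in mouse pituitary melanotropes and corticotropes, the cell types that make pro-opiomelanocortin. They are the genes of the deposited expression table whose symbols name a voltage-gated calcium channel subunit (Cacna1, Cacna2d, Cacnb, Cacng), a ryanodine or inositol trisphosphate (IP3) receptor (Ryr, Itpr), a Stim or Orai protein, an ATP-driven calcium pump (Atp2a, Atp2b, Atp2c), a sodium-calcium exchanger (Slc8a, Slc24a) or the mitochondrial uniporter pore (Mcu). The rule found 55 genes with 112 transcripts, out of 24063 genes with 33072 transcripts in the table. It used gene names only and no measured value, but the set was chosen with earlier results of these data known.

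Melanotropes were compared with corticotropes, with 2 RNA-seq libraries of each. Both came from the POMC-EGFP mouse line on the strain given as C57B6: the pituitary lobes were dissected apart, the GFP-positive cells of each lobe were collected by fluorescence-activated cell sorting, and total RNA, freed of ribosomal RNA, was sequenced in pairs of 50 bp reads. All 4 libraries therefore carry the EGFP reporter that marks POMC cells, and no treatment is listed for any of them. The labels give neither the age or sex of the mice nor whether the libraries of a cell type came from separate animals or sorts, so p-values measure only the spread between these libraries, which may be technical.

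An excitable endocrine cell takes in calcium through voltage-gated channels, in which a large pore-forming subunit (alpha1) is escorted by an intracellular beta subunit and an extracellular alpha2delta subunit. Calcium is also released from the endoplasmic reticulum through IP3 and ryanodine receptors. STIM proteins sense the loss of that store and open ORAI channels in the plasma membrane. SERCA pumps refill the store, and plasma membrane pumps and sodium-calcium exchangers expel the ion from the cell. In melanotropes and corticotropes the resulting rises in cytosolic calcium drive the release of POMC-derived peptides.

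Levels are given in the deposited unit, named FPKM (fragments per kilobase of transcript). The library columns had nearly equal sums, between 729482 and 729485, so they appear scaled to a common total rather than to read depth alone. Levels were divided by a factor per library that aligned the bulk of genes between libraries. The factors were 0.882 and 0.807 for melanotropes and 1.22 and 1.15 for corticotropes. They were needed because Pomc alone held 49.7 and 50.9% of the summed FPKM in melanotropes and 27.8 and 27.2% in corticotropes. Differences are log2 values of (FPKM + 1), melanotrope minus corticotrope, from limma fitted to 13043 genes with at least 1 FPKM in at least 2 libraries. A gene was called higher or lower at a Benjamini-Hochberg adjusted p under 0.05 over all those genes. Depth was not listed, but low values were whole multiples of 1 step per library, and by that step the tested calcium genes had between 150 and 101000 implied reads in a library. Levels are per length and may be set against each other between genes, although they depend on which transcript stands for a gene. Adding 1 to the FPKM makes the log2 difference of a low gene smaller than that of its levels.

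The sorted cells carried the markers of their labels. Pax7, the melanotrope selector factor, was at 57.2 and 56.0 FPKM in melanotropes and 9.45 and 7.97 FPKM in corticotropes, and Crhr1, the receptor through which hypothalamic CRH drives corticotropes, was at 8.13 and 7.03 FPKM in melanotropes and 126 and 138 FPKM in corticotropes. The corticotrope libraries also held melanotrope markers, with means of 86.3 FPKM for Pcsk2, 17.0 for Drd2 and 79.4 for Oacyl. Their melanotrope means were 645, 109 and 606 FPKM. The corticotrope markers Avpr1b and Neurod1 had means of 0.302 and 0.096 FPKM in melanotropes, against 17.4 and 7.88 FPKM in corticotropes. The part of melanotrope RNA in the corticotrope levels of the calcium genes was not tested. RNA of other anterior lobe cells was present in the corticotrope libraries as well. The 10 markers of those lineages summed to 13.7 and 62.5 FPKM in melanotropes and 5786 and 5637 FPKM in corticotropes, all 10 were lower in melanotropes, and Ghrhr was the one listed at 0, in melanotrope replicate 1. Markers of posterior lobe and glia ran the other way, with 4 of 5 tested higher in melanotropes and summed levels of 31.1 and 33.5 FPKM in melanotropes and 7.42 and 8.69 FPKM in corticotropes. Blood and immune markers summed to 7.19 and 10.1 FPKM in melanotropes and 22.0 and 28.6 FPKM in corticotropes, and 6 were tested. The 3 lower in melanotropes were haemoglobin genes, such as Hbb-bs at 1.16 and 2.58 FPKM in melanotropes and 13.4 and 18.6 FPKM in corticotropes. The macrophage genes ran the other way: Cx3cr1, at 1.26 and 1.56 FPKM in melanotropes and 0.393 and 0.40 FPKM in corticotropes, was 1 of 2 called higher, and Cd68 and the untested Aif1 were also above in both melanotrope libraries. Vascular and smooth muscle markers summed to 4.57 and 3.97 FPKM in melanotropes and 5.64 and 7.34 FPKM in corticotropes, with 1 of 3 tested lower. The other-lineage, blood and vascular sums run in the direction of the calcium genes called lower below, the glial sum and the macrophage genes in that of those called higher, and their part in those results was not tested. In bulk RNA of this kind, fewer cells of a type and less RNA per cell cannot be told apart.

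Of the 55 calcium genes, 37 passed the filter and 20 of these were called. In melanotropes 8 were higher and 12 were lower, that is 21.6% and 32.4% of the genes tested. Over all genes tested, 18.7% were called higher and 17.5% lower, 36.2% in all. Among the called members, 4 were higher and 7 lower by at least 2-fold on the log2(FPKM + 1) scale, 29.7% of those tested. Among all genes 4.17% were higher and 4.68% lower by that much, 8.86% in all. The filter can be met through a single cell type, which favours large differences. That was so for Orai1, Ryr3, Atp2a1 and Slc24a4, all among these 2-fold calls and under 1 FPKM in both libraries of the other cell type. The share of all genes was taken under the same filter. The median absolute log2 difference was 0.40 for the members and 0.22 for all genes, while the signed medians were -0.03 and 0.01. The libraries of the cell types did not overlap for 26 of the 37 members, or 70.3%, a share close to the 70.4% of all genes.

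The 18 genes that did not pass the filter reached at most 1.34 FPKM, and 10 of them stayed under 0.2 FPKM in every library. Of the 20 called genes, 14 were called in the same direction under all 14 alternative settings. Those 14 were Cacna2d2, Cacnb1, Atp2a2, Cacna1a, Orai1 and Ryr3 among the higher, and Atp2a1, Slc24a2, Itpr1, Cacna2d3, Slc24a4, Itpr2, Mcu and Atp2c1 among the lower. Scaling matters most for small differences. Without the library factors the median log2 difference of all genes is -0.42 in place of 0.01, and the calls among the members become 6 higher and 22 lower, beside 7.14% higher and 66.8% lower among all genes (73.9% in all). With libraries set to equal sums of all transcripts other than Pomc, the calls become 10 higher and 10 lower, beside 21.9% higher and 14.9% lower among all genes (36.8% in all).

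**Figure D1:**
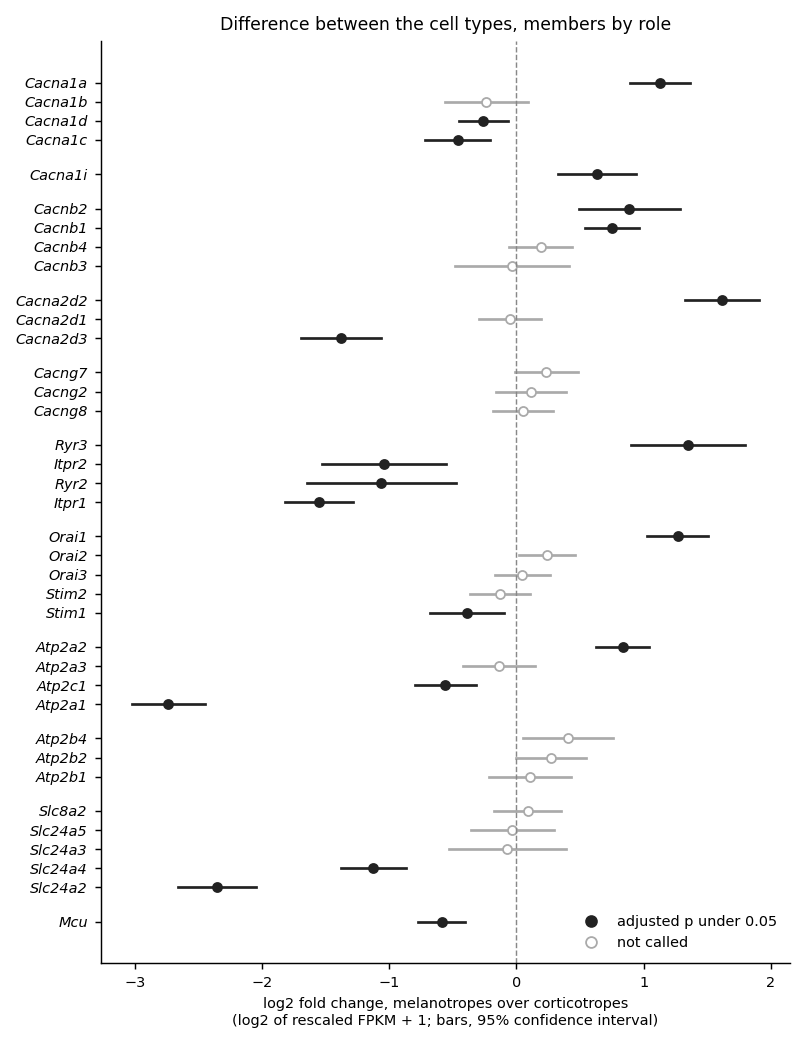
Difference in log2(FPKM + 1), melanotrope minus corticotrope, for the 37 calcium genes tested, grouped by role, each point with its 95% interval from limma. Filled points mark the 20 called genes; the differences run between -2.74 for Atp2a1 and 1.62 for Cacna2d2.

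The sequences just upstream of the transcription starts are shown for the genes with the largest differences in each direction among the called members with an entry at the deposited start, because these are the promoter-proximal stretches of the most unequal transcripts. Each is the 250 bases before the start, 5′ to 3′ on the gene's own strand, from RefSeq on GRCm38.p6 (mm10). Capitals mark the GC box, GGGCGG on either strand, which Sp1-family factors bind.
Cacna2d2, chr9:107399630-107399879, plus strand: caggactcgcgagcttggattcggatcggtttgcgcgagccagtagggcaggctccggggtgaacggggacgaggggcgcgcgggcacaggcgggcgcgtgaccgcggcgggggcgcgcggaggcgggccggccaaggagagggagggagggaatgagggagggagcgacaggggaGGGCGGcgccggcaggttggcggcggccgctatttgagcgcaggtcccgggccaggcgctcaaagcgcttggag
Orai1, chr5:123014824-123015073, plus strand: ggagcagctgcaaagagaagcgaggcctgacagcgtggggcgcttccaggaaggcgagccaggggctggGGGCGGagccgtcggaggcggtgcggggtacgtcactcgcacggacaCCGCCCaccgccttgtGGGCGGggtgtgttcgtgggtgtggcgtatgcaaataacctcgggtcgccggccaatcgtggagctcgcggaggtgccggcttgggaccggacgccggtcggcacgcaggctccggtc
Slc24a2, chr4:87230541-87230790, minus strand: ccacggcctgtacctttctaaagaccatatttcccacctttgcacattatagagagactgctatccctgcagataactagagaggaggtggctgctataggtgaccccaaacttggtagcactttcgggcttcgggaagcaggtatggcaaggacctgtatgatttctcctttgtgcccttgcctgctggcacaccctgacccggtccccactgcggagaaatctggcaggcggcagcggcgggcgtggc
Atp2a1, chr7:126463074-126463323, minus strand: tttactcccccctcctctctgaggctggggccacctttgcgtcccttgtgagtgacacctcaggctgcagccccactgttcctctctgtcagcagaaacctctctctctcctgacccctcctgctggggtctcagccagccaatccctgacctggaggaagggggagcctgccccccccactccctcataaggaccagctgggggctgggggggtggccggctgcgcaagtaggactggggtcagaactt

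The pair that was higher in melanotropes had GC contents of 74.4% (Cacna2d2, with 1 GC box) and 70.8% (Orai1, with 3). The pair that was lower had 56% (Slc24a2) and 64% (Atp2a1), with no GC box, while the median of all 32851 promoters of the table was 52.4%. Entries matched 44 of the 55 members, and 26 of these windows (59.1%) held a GC box, beside 32.7% of all promoters. Each member had 1 window, the nearest to its deposited start, whereas the share of all promoters counts every entry. Some windows were not at that start, with distances of 3760 bases for Cacng7 and 692 bases for Slc24a4, which was called lower. Among called members with an entry, 4 of 5 higher and 6 of 11 lower genes had one.

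Letters of sites bound by POMC-lineage and activity-dependent factors were counted in the same windows, on both strands, beside their share in all promoters. The cyclic AMP response element TGACGTCA was in 0 of 44 member windows and 1.55% of all promoters, and the NR4A site AAAGGTCA in 0 of 44 and 1.34%. The T-box letters TCACACC were in 1 member window (Cacna1b) and 3.33% of all promoters. The E-box CAGATG was in 4 member windows and 14.4% of all promoters, and the bicoid-type homeodomain letters TAATCC in 3 and 6.25%. A match is a description of the letters in this window and not a site.

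The pore subunits of high-voltage-activated channels differed in composition more than in amount. Of 7 genes, 4 were tested: 1 was higher in melanotropes (Cacna1a), 2 lower (Cacna1c and Cacna1d), and 1 not called (Cacna1b). The summed level of the 7 was 21.4 and 20.7 FPKM in melanotropes and 22.7 and 20.1 FPKM in corticotropes, so the cell types overlapped in total. Cacna1d, the pore of the CaV1.3 L-type channel that opens at relatively negative voltages, was the most abundant pore subunit in all 4 libraries.

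Cacna1a (mm10 chromosome 8, 84415364 to 84640249), the pore of P/Q-type channels, which are coupled to vesicle release at many nerve endings, had 6.32 and 5.63 FPKM in melanotropes, against 2.29 and 2.09 FPKM in corticotropes. The melanotrope libraries were the higher ones, and the gap exceeded the spread within either cell type. The means were 5.97 ± 0.489 FPKM in melanotropes and 2.19 ± 0.146 FPKM in corticotropes (SD, n = 2 each), a 2.73-fold ratio, and the log2 difference was 1.13 with an SE of 0.10 (limma adjusted p = 0.00046). Cacna1a made up 29.5 and 27.2% of the summed pore level in melanotropes and 10.1 and 10.4% in corticotropes.

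Cacna1d (chromosome 14, 30039939 to 30353486) had 11.0 and 10.9 FPKM in melanotropes, against 13.8 and 12.8 FPKM in corticotropes. The libraries did not overlap, but the difference was small, at -0.26 with an SE of 0.08 and an adjusted p of 0.0488, and it passed the threshold in 6 of 14 alternatives. Leaving out any 1 of the 4 libraries ended the call, with adjusted p between 0.0815 and 0.219. Cacna1d held 51.2 and 52.6% of the summed pore level in melanotropes and 60.5 and 63.8% in corticotropes, and the ratio of Cacna1a to Cacna1d was 0.576 and 0.516 in melanotropes and 0.167 and 0.163 in corticotropes.

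Cacna1c (chromosome 6, 118587240 to 119108495), the CaV1.2 L-type pore best known from heart and smooth muscle, had 1.03 and 1.23 FPKM in melanotropes, against 2.06 and 1.80 FPKM in corticotropes. Its log2 difference was -0.46 (adjusted p = 0.0181), and the call was lost without melanotrope replicate 1 (adjusted p = 0.0934). Cacna1b, the N-type pore of presynaptic terminals, had 2.89 and 2.75 FPKM in melanotropes and 4.09 and 2.98 FPKM in corticotropes. That difference was within the error, at -0.24 with a 95% interval of -0.56 to 0.09, although without corticotrope replicate 2 it was called lower (-0.41, adjusted p = 0.0327).

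The remaining pores of this class were close to the floor of the table. Cacna1e, the R-type pore, had 0.102 and 0.111 FPKM in melanotropes and 0.303 and 0.20 FPKM in corticotropes. Cacna1f, the L-type pore of retinal photoreceptors, had 0.102 and 0.0868 FPKM in melanotropes and 0.229 and 0.183 FPKM in corticotropes. Cacna1s, the L-type pore of skeletal muscle, was listed at 0 in both melanotrope libraries and corresponded to about 7 and 14 implied reads in corticotropes. Because the table is rounded to 2 decimals, a value listed at 0 for Cacna1s could still hide up to about 7 reads in either melanotrope library.

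Among the pores of T-type channels, which open near the resting voltage and support pacemaking, 1 of 3 genes was tested. Cacna1i (chromosome 15, 80287238 to 80398292), the CaV3.3 pore, had 4.41 and 5.39 FPKM in melanotropes, against 3.09 and 2.50 FPKM in corticotropes. The melanotrope libraries were higher, with a log2 difference of 0.64 and an SE of 0.13 (adjusted p = 0.0110). On the deposited scale the difference stayed positive, at 0.25, but was not called (adjusted p = 0.133). Cacna1g (CaV3.1) had 0.431 and 0.669 FPKM in melanotropes and 0.753 and 1.34 FPKM in corticotropes, and Cacna1h (CaV3.2) had 0.181 and 0.161 FPKM in melanotropes and 0.491 and 0.400 FPKM in corticotropes. Cacna1i therefore held 87.8 and 86.7% of the summed T-type level in melanotropes and 71.3 and 59.0% in corticotropes, while the summed level itself was 5.02 and 6.22 FPKM in melanotropes and 4.34 and 4.24 FPKM in corticotropes.

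Beta subunits bind the intracellular face of the pore and bring it to the membrane. All 4 genes were tested; Cacnb1 and Cacnb2 were higher in melanotropes, and Cacnb3 and Cacnb4 were not called. Cacnb1 (chromosome 11, 98001508 to 98022627), the isoform of skeletal muscle channels that is also made in neurons, had 5.12 and 5.56 FPKM in melanotropes, against 2.73 and 2.79 FPKM in corticotropes. Its replicates lay close together, and the log2 difference was 0.75 with an SE of 0.09 (adjusted p = 0.00146).

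Cacnb2 (chromosome 2, 14604306 to 14987908), the main beta subunit of the heart, had 11.8 and 12.8 FPKM in melanotropes, against 7.52 and 5.08 FPKM in corticotropes. The corticotrope replicates were further apart than the melanotrope replicates, and the difference was 0.89 with an SE of 0.16 (adjusted p = 0.00817). On the deposited scale it was 0.45 and not called (adjusted p = 0.0719).

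Cacnb3 (chromosome 15, 98634767 to 98644536), a beta subunit widespread in neurons and endocrine cells, was the most abundant of the group, at 22.2 and 31.1 FPKM in melanotropes and 23.8 and 30.5 FPKM in corticotropes. The cell types overlapped and replicate 2 was the higher one in each. The log2 difference was -0.03 with a 95% interval of -0.48 to 0.41, turning to 0.02 with equal sums other than Pomc and to -0.51, then called lower, on the deposited scale (adjusted p = 0.0213). Cacnb4 was the least abundant, at 1.42 and 1.66 FPKM in melanotropes and 1.17 and 1.28 FPKM in corticotropes. As a share of the summed beta level, Cacnb2 held 29.2 and 25.0% in melanotropes and 21.4 and 12.8% in corticotropes, and Cacnb3 held 54.7 and 60.8% in melanotropes and 67.5 and 76.9% in corticotropes.

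The alpha2delta subunits raise the number of channels at the surface, and those of Cacna2d1 and Cacna2d2 bind gabapentin. Of 4 genes 3 were tested, and they took opposite directions: Cacna2d2 was higher in melanotropes, Cacna2d3 was lower, and Cacna2d1 was not called. Cacna2d2 (chromosome 9, 107399880 to 107529343), whose loss causes ataxia in the ducky mouse, had 7.65 and 9.48 FPKM in melanotropes, against 1.99 and 2.22 FPKM in corticotropes. The ratio of means was 4.07-fold, and the log2 difference of 1.62, with an SE of 0.12 (adjusted p = 0.000274), was the largest on the log2(FPKM + 1) scale among the members higher in melanotropes.

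Cacna2d3 (chromosome 14, 28904943 to 29721864), a neuronal alpha2delta subunit, had 2.09 and 2.89 FPKM in melanotropes, against 7.74 and 8.33 FPKM in corticotropes. The mean was 2.49 ± 0.566 FPKM in melanotropes and 8.03 ± 0.411 FPKM in corticotropes (SD, n = 2 each), and the log2 difference was -1.38 with an SE of 0.13 (adjusted p = 0.000606). Cacna2d1 (chromosome 5, 15934691 to 16374511), the subunit first purified from skeletal muscle, was the most abundant, at 36.6 and 34.3 FPKM in melanotropes and 39.5 and 34.2 FPKM in corticotropes, which overlap. Its log2 difference was -0.05 with a 95% interval of -0.29 to 0.19, 0.00 with equal sums other than Pomc, and -0.53, then called lower, on the deposited scale (adjusted p = 0.0111).

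The summed alpha2delta level was 46.3 and 46.7 FPKM in melanotropes and 49.3 and 44.8 FPKM in corticotropes. Within it Cacna2d2 held 16.5 and 20.3% in melanotropes and 4.04 and 4.95% in corticotropes, while Cacna2d3 held 4.51 and 6.18% in melanotropes and 15.7 and 18.6% in corticotropes. Cacna2d4 stayed under 0.07 FPKM in all libraries and was not tested.

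Among the gamma subunits, most of which are better known as TARPs that escort AMPA-type glutamate receptors, 3 of 8 genes were tested and none was called by limma; 0 of the 3 had an unadjusted p under 0.05. Cacng7 (chromosome 7, 3336585 to 3366948) was the most abundant, at 11.1 and 11.4 FPKM in melanotropes and 10.3 and 8.65 FPKM in corticotropes. Its difference of 0.23 had a 95% interval of -0.01 to 0.48 and turned to -0.21 on the deposited scale. Cacng2, or stargazin, had 1.40 and 1.24 FPKM in melanotropes and 1.29 and 0.999 FPKM in corticotropes, and Cacng8 had 1.24 and 1.38 FPKM in melanotropes and 1.19 and 1.27 FPKM in corticotropes. Cacng1, Cacng3, Cacng4, Cacng5 and Cacng6 were not tested.

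**Figure D2:**
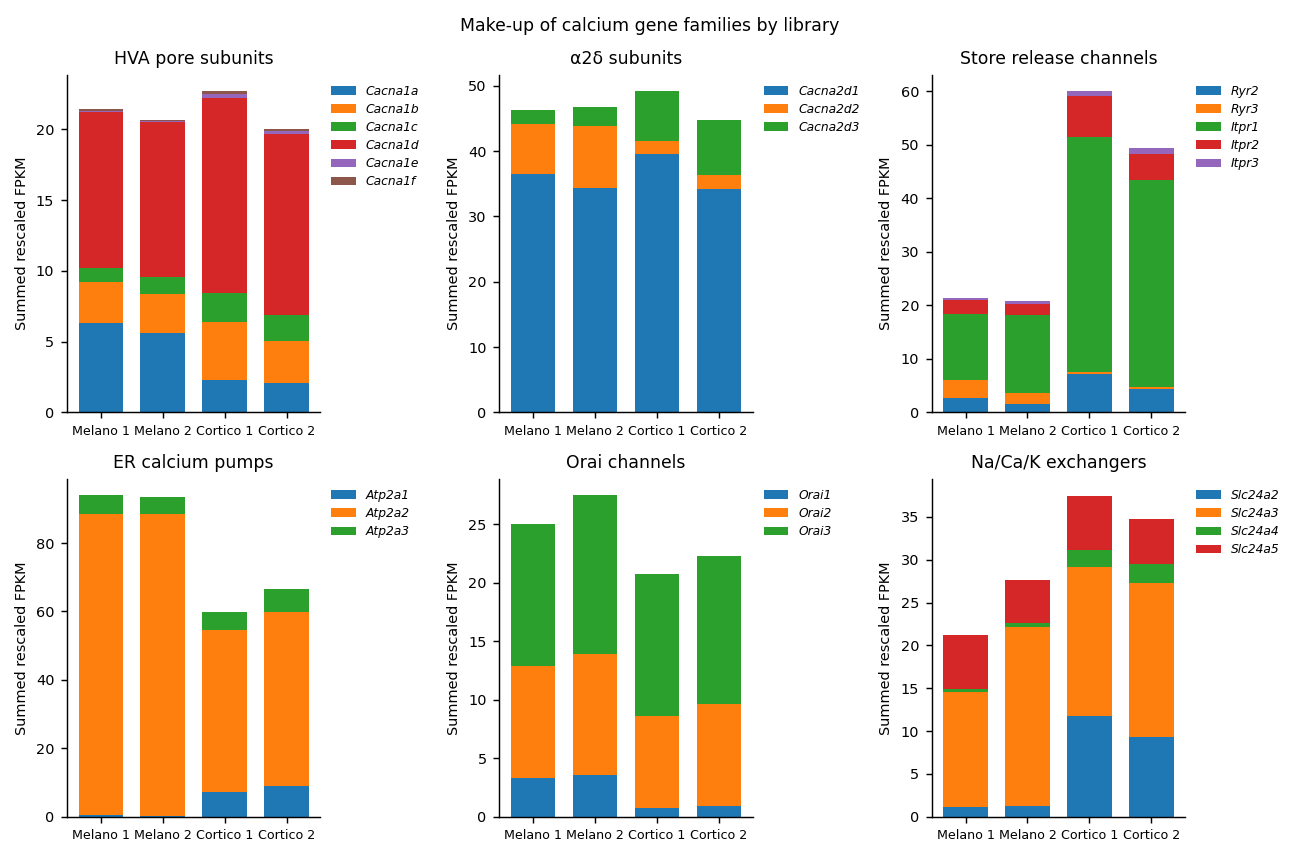
Stacked bars of rescaled FPKM for 6 families of calcium genes, with a bar for each library and a colour for each gene holding at least 0.5% of its family in some library. Melanotrope bars reach 21.5 and 20.9 FPKM for the store release channels and corticotrope bars 60.1 and 49.5 FPKM, while the bars of the high-voltage pores have like heights and a larger Cacna1a segment in melanotropes.

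Of the 6 store release channels 4 were tested and all 4 were called: Itpr1, Itpr2 and Ryr2 were lower in melanotropes and Ryr3 was higher. The summed level of the 6 genes was 21.5 and 20.9 FPKM in melanotropes and 60.1 and 49.5 FPKM in corticotropes. The means were 21.2 ± 0.419 FPKM in melanotropes and 54.8 ± 7.51 FPKM in corticotropes (SD, n = 2 each). The summed markers of other anterior lineages, at 13.7 and 62.5 FPKM in melanotropes and 5786 and 5637 FPKM in corticotropes, moved the same way as the 3 lower genes, and their part was not tested.

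Itpr1 (chromosome 6, 108213096 to 108551116), the IP3 receptor that dominates in Purkinje neurons, had 12.3 and 14.5 FPKM in melanotropes, against 43.8 and 38.8 FPKM in corticotropes. It was the most abundant release channel in every library, at 57.4 and 69.6% of the family sum in melanotropes and 73.0 and 78.5% in corticotropes. The log2 difference was -1.56 with an SE of 0.11 (adjusted p = 0.000236). The corticotrope mean was 3.08-fold the melanotrope mean. In the authors' deposited table it also had a false discovery rate of 1.9e-05, with a log2 difference of -1.62.

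Itpr2 (chromosome 6, 146108299 to 146502223), the isoform typical of heart, liver and gland cells, had 2.72 and 2.13 FPKM in melanotropes, against 7.60 and 4.75 FPKM in corticotropes. Its corticotrope replicates differed more than those of Itpr1, and the log2 difference was -1.04 with an SE of 0.20 (adjusted p = 0.00956). Itpr3, common in secretory epithelia, had 0.420 and 0.558 FPKM in melanotropes and 0.925 and 1.10 FPKM in corticotropes and did not pass the filter.

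Ryanodine receptors amplify calcium signals by releasing the store when cytosolic calcium rises. Ryr2 (chromosome 13, 11553103 to 12106945), the cardiac and main brain isoform, had 2.77 and 1.66 FPKM in melanotropes, against 7.11 and 4.38 FPKM in corticotropes. Replicate 1 was the higher one in both cell types and the SE was 0.24, for a log2 difference of -1.06 (adjusted p = 0.0173). With no filter on low values the same difference had an adjusted p of 0.0621.

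Ryr3 (chromosome 2, 112631382 to 113030331), a less abundant brain and smooth muscle isoform, ran the other way, with 3.23 and 2.00 FPKM in melanotropes against 0.516 and 0.287 FPKM in corticotropes. The mean was 2.61 ± 0.875 FPKM in melanotropes and 0.401 ± 0.162 FPKM in corticotropes (SD, n = 2 each), a 6.51-fold ratio that exceeded that of Cacna2d2. The fitted difference was 1.35 on the log2 scale with an SE of 0.18 (adjusted p = 0.00261). Its exons overlap those of Aven on the opposite strand over 4.83% of their bases, and the sources used here do not say whether counting used strand; Aven itself had 5.40 and 5.43 FPKM in melanotropes and 4.53 and 5.05 FPKM in corticotropes. Ryr1, the skeletal muscle isoform, was listed at 0 in both melanotrope libraries and had 0.0982 and 0.122 FPKM in corticotropes, about 211 and 492 implied reads. Rounding could hide up to about 17 and 18 reads in the melanotrope libraries.

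**Figure D3:**
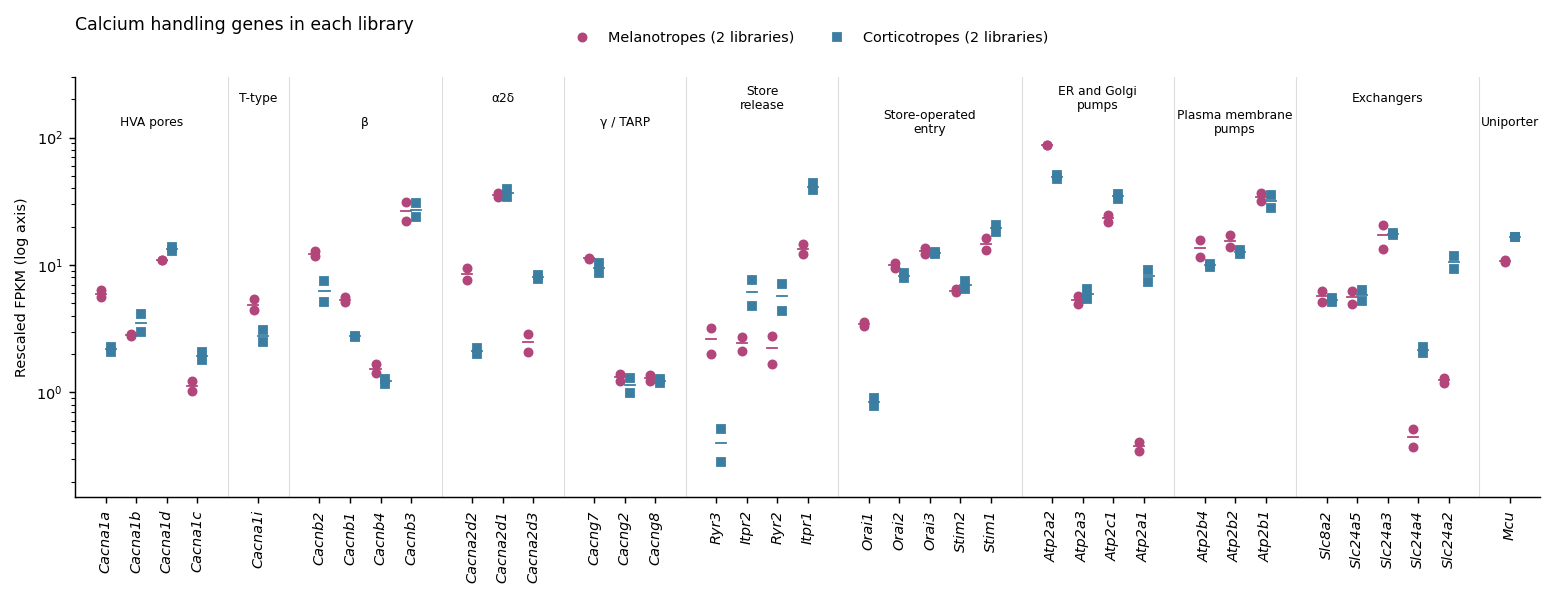
Rescaled FPKM of the 37 tested calcium genes on a logarithmic axis, by role, with melanotrope circles left of corticotrope squares, 1 point per library and a short line at the mean. Itpr1 lies at 12.3 and 14.5 FPKM in melanotropes and 43.8 and 38.8 FPKM in corticotropes, and Atp2a2, the highest gene, at 87.9 and 88.2 FPKM in melanotropes and 47.1 and 50.9 FPKM in corticotropes.

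All 5 genes of store-operated entry, with 2 sensors and 3 pore genes, were tested; Orai1 was higher in melanotropes, Stim1 was lower, and Orai2, Orai3 and Stim2 were not called. Orai1 (chromosome 5, 123015074 to 123030452), the pore of the calcium-release-activated current in lymphocytes, had 3.30 and 3.58 FPKM in melanotropes, against 0.778 and 0.912 FPKM in corticotropes. The melanotrope libraries were the higher ones, with a 4.07-fold ratio of means and a log2 difference of 1.27 with an SE of 0.10 (adjusted p = 0.000317).

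Orai2 and Orai3, which form or modify such channels, were more abundant than Orai1 in every library. Orai2 had 9.56 and 10.3 FPKM in melanotropes and 7.85 and 8.71 FPKM in corticotropes, a difference of 0.24 (95% interval 0.02 to 0.46, adjusted p = 0.0886). With equal sums other than Pomc Orai2 was called higher (0.29, adjusted p = 0.0358), and on the deposited scale its difference turned to -0.20. Orai3 had 12.1 and 13.6 FPKM in melanotropes and 12.1 and 12.7 FPKM in corticotropes, a difference of 0.05 that turned to -0.41, then called lower, on the deposited scale. Of the summed ORAI level, Orai1 made up 13.2 and 13.0% in melanotropes and 3.75 and 4.09% in corticotropes.

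Stim1 (chromosome 7, 102267824 to 102436855), the main store sensor, had 13.2 and 16.2 FPKM in melanotropes, against 20.8 and 18.2 FPKM in corticotropes. The libraries did not overlap, and the log2 difference was -0.39 with an SE of 0.12 (adjusted p = 0.0472). The call held in 9 of 14 alternatives and was lost without melanotrope replicate 1 (adjusted p = 0.182) or corticotrope replicate 1 (adjusted p = 0.157). Stim2, a sensor that responds to smaller losses of store calcium, had 6.10 and 6.49 FPKM in melanotropes and 6.48 and 7.48 FPKM in corticotropes. The ratio of Stim1 to Orai1 was 4.0 and 4.51 in melanotropes and 26.7 and 20.0 in corticotropes.

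Pumps of the store and the Golgi apparatus held the largest difference of all members. Of 5 genes 4 were tested: Atp2a2 was higher in melanotropes, Atp2a1 and Atp2c1 were lower, and Atp2a3 was not called. Atp2a2 (chromosome 5, 122453513 to 122502225) encodes SERCA2, the housekeeping and cardiac pump of the endoplasmic reticulum, and was the most abundant calcium gene in every library. It had 87.9 and 88.2 FPKM in melanotropes, against 47.1 and 50.9 FPKM in corticotropes. The replicates agreed closely, with means of 88.1 ± 0.162 FPKM in melanotropes and 49.0 ± 2.67 FPKM in corticotropes (SD, n = 2 each), and the log2 difference was 0.83 with an SE of 0.08 (adjusted p = 0.000837). On the deposited scale the difference was smaller, at 0.35, and still called. These levels are those of the longest transcript of Atp2a2, a non-coding RefSeq record. Its longer coding transcript had 103 and 105 FPKM in melanotropes and 54.8 and 59.7 FPKM in corticotropes. The shorter coding transcript had 102 and 103 FPKM in melanotropes and 55.0 and 58.7 FPKM in corticotropes.

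Atp2a1 (chromosome 7, 126445860 to 126463073), SERCA1, the pump of fast-twitch skeletal muscle, had 0.408 and 0.347 FPKM in melanotropes, against 7.38 and 9.07 FPKM in corticotropes. The corticotrope mean of 8.22 ± 1.20 FPKM was 21.8-fold the melanotrope mean of 0.378 ± 0.0434 FPKM (SD, n = 2 each). The log2 difference was -2.74 with an SE of 0.12 (adjusted p = 5.48e-05). It depended on the pseudocount, at -4.12 with 0.1 FPKM added and -1.30 with 5 FPKM added, and was called with each.

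Skeletal muscle markers were low in all libraries, and their part in the Atp2a1 result was not tested. None of the 6 passed the filter, they summed to 0.998 and 1.26 FPKM in melanotropes and 1.62 and 1.46 FPKM in corticotropes, and Myh1 was listed at 0 in both melanotrope libraries. Ckm, the muscle creatine kinase, had 0.181 and 0.174 FPKM in melanotropes and 0.786 and 0.687 FPKM in corticotropes, the direction of Atp2a1, which Myh1 and Mylpf shared. Myh4, a fast myosin, had 0.227 and 0.384 FPKM in melanotropes and 0.033 and 0.043 FPKM in corticotropes, and Acta1 too was higher in both melanotrope libraries. A neighbouring gene does overlap it: 21.9% of the exon bases of Atp2a1 lie within exons of Rabep2 on the opposite strand. Rabep2, a protein of endosome fusion, had 7.94 and 7.61 FPKM in melanotropes and 15.6 and 17.2 FPKM in corticotropes and was also lower in melanotropes (log2 difference -0.99, adjusted p = 0.000476). The level of Atp2a1 is therefore uncertain to the extent that reads of Rabep2 were counted in it.

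Together the SERCA genes summed to 94.1 and 93.4 FPKM in melanotropes and 59.9 and 66.4 FPKM in corticotropes. Atp2a1 made up 0.434 and 0.371% of this sum in melanotropes and 12.3 and 13.7% in corticotropes. Atp2a3, the pump of blood cells and some endocrine cells, had 5.71 and 4.92 FPKM in melanotropes and 5.39 and 6.49 FPKM in corticotropes, which overlap.

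Atp2c1 (chromosome 9, 105411362 to 105495133), the Golgi pump for calcium and manganese that is mutated in Hailey-Hailey disease, had 21.7 and 24.8 FPKM in melanotropes, against 33.3 and 36.1 FPKM in corticotropes. On the log2 scale the difference was -0.56 with an SE of 0.10 (adjusted p = 0.00669). Exons of Aste1 on the opposite strand cover 18.9% of the exon bases of Atp2c1. Aste1 had 3.43 and 3.56 FPKM in melanotropes and 3.79 and 3.69 FPKM in corticotropes, a difference that was not called (-0.08, adjusted p = 0.514). The ratio of Atp2a2 to Atp2c1 was 4.06 and 3.55 in melanotropes and 1.42 and 1.41 in corticotropes. Between refilling pump and main release channel the contrast was wider, with a ratio of Atp2a2 to Itpr1 of 7.14 and 6.07 in melanotropes and 1.07 and 1.31 in corticotropes.

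The plasma membrane pumps, which export calcium with high affinity, gave no call by limma among 3 tested of 4 genes, although 1 (Atp2b4) had an unadjusted p under 0.05. Atp2b1 (chromosome 10, 98915152 to 99026143), the ubiquitous PMCA1, was the most abundant, at 31.9 and 36.7 FPKM in melanotropes and 28.2 and 35.6 FPKM in corticotropes, which overlap. Its difference was 0.11 with a 95% interval of -0.22 to 0.43 and turned to -0.37, then called lower, on the deposited scale (adjusted p = 0.0183). Atp2b2, the PMCA2 of hair cells and neurons, had 14.0 and 17.2 FPKM in melanotropes and 13.1 and 12.1 FPKM in corticotropes, with a difference of 0.27. Atp2b4, or PMCA4, had 11.5 and 15.8 FPKM in melanotropes and 9.69 and 10.3 FPKM in corticotropes, with a difference of 0.40 (95% interval 0.05 to 0.76, adjusted p = 0.0778), and was called higher with equal sums other than Pomc (0.45, adjusted p = 0.0371). Without melanotrope replicate 1 both Atp2b2 (0.41) and Atp2b4 (0.62) were called higher, so that 2 of the 3 passed, and on the deposited scale their differences were -0.19 and -0.05 and not called. Atp2b3 stayed under 0.09 FPKM in every library.

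Sodium-calcium exchangers clear large calcium loads, those of the Slc24a family by moving potassium along with calcium. Of 8 genes 5 were tested; Slc24a2 and Slc24a4 were lower in melanotropes and Slc24a3, Slc24a5 and Slc8a2 were not called. Slc24a2 (chromosome 4, 86983126 to 87230540), the exchanger of cone photoreceptors and neurons, had 1.19 and 1.30 FPKM in melanotropes, against 11.8 and 9.29 FPKM in corticotropes. The corticotrope mean of 10.6 ± 1.78 FPKM was 8.47-fold the melanotrope mean of 1.25 ± 0.0779 FPKM (SD, n = 2 each), and the log2 difference was -2.35 with an SE of 0.12 (adjusted p = 9.13e-05).

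Slc24a4 (chromosome 12, 102129419 to 102266749), the exchanger of olfactory neurons and enamel-forming cells, had 0.374 and 0.521 FPKM in melanotropes, against 2.05 and 2.26 FPKM in corticotropes. The log2 difference was -1.13 with an SE of 0.11 (adjusted p = 0.00061), on levels near 1 FPKM that correspond to 150 and 204 implied reads in melanotropes. Slc24a3 (chromosome 2, 145242611 to 145641939), a widely expressed relative, was the most abundant exchanger, at 13.4 and 20.8 FPKM in melanotropes and 17.3 and 18.0 FPKM in corticotropes. Its melanotrope replicates lay on either side of the corticotrope replicates, and the direction depended on them: the difference was -0.07 in all libraries, 0.23 without melanotrope replicate 1 and -0.37, then called lower (adjusted p = 0.048), without melanotrope replicate 2.

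As a share of the summed Slc24a level, which was 21.3 and 27.7 FPKM in melanotropes and 37.6 and 34.8 FPKM in corticotropes, Slc24a2 held 5.59 and 4.70% in melanotropes and 31.5 and 26.7% in corticotropes. Slc24a5, the exchanger of pigment cell organelles, had 6.27 and 4.97 FPKM in melanotropes and 6.33 and 5.21 FPKM in corticotropes, but 39.5% of its exon bases overlap Myef2 on the opposite strand, which had 23.2 and 21.0 FPKM in melanotropes and 21.0 and 19.1 FPKM in corticotropes. Slc8a2, the neuronal sodium-calcium exchanger NCX2, had 5.17 and 6.31 FPKM in melanotropes and 5.16 and 5.48 FPKM in corticotropes, a difference of 0.09 that turned to -0.33, then called lower, on the deposited scale. The cardiac NCX1 gene Slc8a1 had 0.579 and 0.570 FPKM in melanotropes and 0.745 and 0.739 FPKM in corticotropes and, like Slc8a3 and Slc24a1, was not tested.

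Mcu (chromosome 10, 59446984 to 59616692), the pore through which mitochondria take up calcium, had 10.9 and 10.6 FPKM in melanotropes, against 16.7 and 16.5 FPKM in corticotropes. The replicates agreed closely, with means of 10.7 ± 0.216 FPKM in melanotropes and 16.6 ± 0.108 FPKM in corticotropes (SD, n = 2 each). Fitted on the log2 scale, the difference was -0.59 with an SE of 0.08 (adjusted p = 0.00207).

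**Figure D4:**
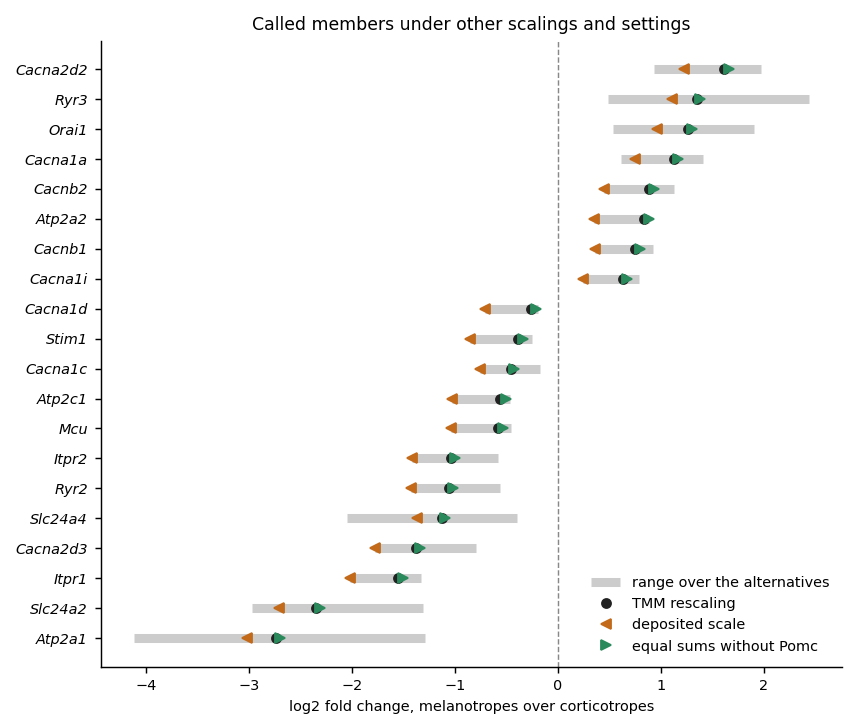
Log2 difference, melanotrope minus corticotrope, of the 20 called calcium genes with the library factors (black), on the deposited scale (orange) and with equal sums other than Pomc (green); grey bars span all 14 alternatives. No bar crosses 0, the orange points lie to the left of the black ones, and Cacna1i is at 0.64 with the factors and 0.25 on the deposited scale, where it was not called.

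The choice of transcript mattered little for the log2 differences. Of the 55 members 23 had several transcripts, none changed sign between its transcripts, and the largest range of log2 differences among them was 0.10 (Cacnb2). Levels depended on it more. On its shortest transcript Atp2c1 had 30.4 and 35.9 FPKM in melanotropes and 47.0 and 51.4 FPKM in corticotropes, above those of its longest. Family sums, shares and ratios between genes rest on the longest transcript of each gene. In the authors' deposited table, which tests each transcript, 7 of the 112 member transcripts (6.25%) had a false discovery rate under 0.05, beside 2.28% of all transcripts. They belong to 4 genes: in the authors' deposited table Atp2a1, Slc24a2 and Itpr1 were lower in melanotropes and Atp2a2 was higher. Different genes share identical log2 differences there, such as -1.16 for both Itpr2 and Ryr2, and that of Ryr1 is 0. The values that entered the authors' test are not given, so its resolution at low levels is unknown.

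The machinery around these channels was described from 5 lists. Beside their counts stand the shares of all genes tested, 18.7% higher and 17.5% lower. On the deposited scale, without the library factors, those shares were 7.14% and 66.8%. Among proteins that buffer and fold in the store or accompany the uniporter, 6 of 21 tested genes were higher in melanotropes and 5 lower. Calr, the calcium-binding chaperone of the endoplasmic reticulum, had 551 and 512 FPKM in melanotropes and 320 and 299 FPKM in corticotropes (log2 difference 0.78, adjusted p = 0.0043), a call that the deposited scale lost (adjusted p = 0.069). Micu2, a gatekeeper of the uniporter, had 14.1 and 16.6 FPKM in melanotropes and 26.4 and 28.8 FPKM in corticotropes (-0.81, adjusted p = 0.00203), the same direction as Mcu. Micu3, the neuronal gatekeeper, had 12.7 and 11.6 FPKM in melanotropes and 8.82 and 9.19 FPKM in corticotropes (0.40, adjusted p = 0.0147), but its difference was -0.05 on the deposited scale, and it was not called without melanotrope replicate 1 or corticotrope replicate 1 (adjusted p = 0.0822 and 0.0536). Asph, whose locus also encodes the store protein junctin, had 11.1 and 11.4 FPKM in melanotropes and 18.2 and 17.0 FPKM in corticotropes (-0.60, adjusted p = 0.00237). The count of higher genes in this list was the least firm, at 2 or 3 when any 1 library was left out and 0, with 11 lower, on the deposited scale.

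In the pathway that makes and removes IP3, the ligand of the Itpr receptors, 3 of 15 tested genes were higher in melanotropes and 2 were lower. These counts are near the shares of all genes tested, 18.7% higher and 17.5% lower. Plce1, a Ras-responsive phospholipase C, had 0.805 and 0.793 FPKM in melanotropes and 9.59 and 9.51 FPKM in corticotropes (-2.55, adjusted p = 3.11e-05). Plcd4 had 3.57 and 3.69 FPKM in melanotropes and 7.78 and 8.80 FPKM in corticotropes (-1.0, adjusted p = 0.0006). Itpkb, a kinase that converts IP3 into IP4, had 18.2 and 25.2 FPKM in melanotropes and 9.59 and 9.61 FPKM in corticotropes (1.08, adjusted p = 0.00277). Plcg2, a phospholipase C of immune cells, had 1.62 and 2.27 FPKM in melanotropes and 0.95 and 0.869 FPKM in corticotropes (0.62, adjusted p = 0.0139); without melanotrope replicate 2 it was not called (adjusted p = 0.0537) and 1 gene of the list was higher. The macrophage genes Cx3cr1 and Csf1r were higher in melanotropes as well, and their part in the Plcg2 result was not tested. Without the library factors, 9 genes of the list were lower, beside 66.8% of all genes.

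Of the calcium-binding buffers and sensors, 6 of 12 tested were higher in melanotropes and 2 lower. Calb1, the cytosolic buffer calbindin, had 135 and 139 FPKM in melanotropes and 40.4 and 40.5 FPKM in corticotropes (1.73, adjusted p = 6.19e-05), a level that in melanotropes exceeded every calcium transporter described here. Hpcal1, a neuronal calcium sensor, had 32.1 and 38.4 FPKM in melanotropes and 12.7 and 13.2 FPKM in corticotropes (1.37, adjusted p = 0.00031). Running the other way, Ncs1, a sensor of secretory cells, had 6.51 and 8.06 FPKM in melanotropes and 11.9 and 12.2 FPKM in corticotropes (-0.66, adjusted p = 0.00544), and Scgn, or secretagogin, had 0.272 and 0.446 FPKM in melanotropes and 1.37 and 2.12 FPKM in corticotropes (-1.0, adjusted p = 0.00453). Without the library factors, 3 genes of this list were higher, beside 7.14% of all genes.

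Calcium-dependent kinases, calcineurin and NFAT genes were the list with most lower calls, 11 of 21 tested, with 5 higher. Calmodulin kinase II changed in its isoforms: Camk2a had 6.57 and 6.96 FPKM in melanotropes and 2.45 and 2.71 FPKM in corticotropes (1.12, adjusted p = 0.000369), while Camk2g had 8.16 and 7.56 FPKM in melanotropes and 18.7 and 18.8 FPKM in corticotropes (-1.16, adjusted p = 0.000223). Camk2n1, an inhibitor of that kinase, had 34.0 and 34.0 FPKM in melanotropes and 14.7 and 17.8 FPKM in corticotropes (1.03, adjusted p = 0.000857). Camk1g had 0.147 and 0.223 FPKM in melanotropes and 3.54 and 3.36 FPKM in corticotropes (-1.91, adjusted p = 8.02e-05).

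The list of channel regulators and TRP channels had 5 higher and 5 lower of 19 tested. Without the library factors 12 were lower, beside 66.8% of all genes. Gem and Rrad are small GTPases that bind beta subunits and hold back high-voltage-activated channels, and they differed in opposite directions. Gem had 68.3 and 89.5 FPKM in melanotropes and 19.0 and 20.5 FPKM in corticotropes (1.94, adjusted p = 0.000246), and Rrad had 1.19 and 1.30 FPKM in melanotropes and 4.04 and 3.14 FPKM in corticotropes (-1.02, adjusted p = 0.00155). Of the TRP cation channels, Trpm3 had 23.3 and 24.0 FPKM in melanotropes and 9.42 and 9.06 FPKM in corticotropes (1.27, adjusted p = 0.000139). Trpc5 had 0.147 and 0.149 FPKM in melanotropes and 9.99 and 6.78 FPKM in corticotropes (-3.01, adjusted p = 0.000108), a larger log2 difference than that of any of the 37 calcium genes.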

How the data were processed

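The deposited table gives one row per RefSeq transcript on mm10, with 4 library columns in FPKM made by the authors with HOMER over exons, per the file headers; these headers carry HOMER's rpkm option, and TopHat, HOMER and edgeR are named without versions in the submitters' processing notes. Neither the use of strand in counting nor how both mates of a pair were counted is given. The authors' deposited log2 fold change, p-value and false discovery rate columns were quoted only where named. Ratios of means were computed from the deposited FPKM after rescaling. No library column was left out. Exon overlaps with other genes are shares of all exon bases of a gene in the GENCODE annotation. The share of the deposited transcript itself was not computed.

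The longest transcript of each gene was kept. Values were divided by unweighted trimmed-mean factors (trim 30% of log ratios and 5% of mean levels), genes with at least 1 FPKM in at least 2 libraries were kept, and log2(FPKM + 1) was fitted with limma 3.58.1 in R 4.3.3 (eBayes with trend, two-sided), cell type being the only term. The fit had 2 residual degrees of freedom and gained 4.02 from the prior, and the median SE over genes was 0.10. The steps were tested on simulated data. An exact permutation test of 2 against 2 libraries cannot give a p below 0.333 and was not used. Low values multiplied by transcript length in kilobases were whole multiples (within 0.2 of a step, for 100% of 367 to 471 values per library) of 0.00457 and 0.00427 in melanotropes and 0.00869 and 0.00434 in corticotropes, which gave the implied reads.

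Genes given with every library were members called with an absolute log2 difference of at least 0.58, the most abundant member of each of 11 role groups and, per list, up to 2 genes per direction with the smallest adjusted p; the other tested members, Cacna1c, Cacna1d and Stim1 among them, were added for completeness. The members and lists were chosen with earlier results of these data known. The alternatives tried were 3 other scalings, 2 other pseudocounts, 2 other filters, another transcript choice, another prior, the replicate number as a term, and leaving out each library.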

Additional observations from a re-analysis of the deposited data

How the results depend on the processing

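With 2 libraries per cell type, differences of about 0.4 on the log2 scale and less were at the edge of what could be called. On the deposited scale, without library factors, 939 genes were higher in melanotropes and 8787 lower, against 2442 and 2284 with the factors; 22 members were lower, against 12, and the median log2 difference of the members was -0.48. The members' counts were 8 higher and 11 lower with median-of-ratios factors, and 8 higher and 10 lower with a single prior variance. Leaving out 1 library at a time gave 1673 to 2022 genes higher, 1584 to 2017 lower, 8 to 10 members higher and 9 to 12 lower. The members' median was 0.09 without melanotrope replicate 1.

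Directions turned for 14 members, none of them called, and for Micu3. On the deposited scale the differences were -0.37 for Atp2b1, -0.186 for Atp2b2, -0.049 for Atp2b4, -0.0945 for Cacnb4, -0.157 for Cacng2, -0.21 for Cacng7, -0.225 for Cacng8, -0.204 for Orai2, -0.41 for Orai3, -0.329 for Slc8a2 and -0.0527 for Micu3. With equal sums other than Pomc they were 0.00102 for Cacna2d1, 0.017 for Cacnb3 and 0.011 for Slc24a5. Leaving out 1 library at a time, they ranged between -0.0572 (without corticotrope replicate 1) and 0.27 for Atp2b1, -0.153 and 0.0511 (without corticotrope replicate 1) for Cacna2d1, -0.269 and 0.20 (without melanotrope replicate 1) for Cacnb3, -0.0312 (without melanotrope replicate 2) and 0.122 for Orai3, -0.0345 (without melanotrope replicate 2) and 0.209 for Slc8a2, -0.177 and 0.108 (without melanotrope replicate 2) for Slc24a5, and -0.37 and 0.23 (without melanotrope replicate 1) for Slc24a3. The cause was not tested. Over the 37 members and 14 alternatives, 463 values kept direction and side of the threshold, 17 lost the call, 16 gained one and 22 changed sign.

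The labels number the libraries 1 and 2 in each cell type but do not say that a number marks a shared animal or day. Deviations of same-numbered libraries correlated at 0.526 across genes, but with 2 pairs this cannot decide whether the libraries were paired. With the replicate number as a block, 3656 genes were higher and 3350 lower, and 12 members were higher and 12 lower; the 4 gained were Atp2b2, Atp2b4, Cacng7 and Orai2.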

Other observations

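Replicate 1 exceeded replicate 2 in both cell types for 3 of the 5 tested members with transcripts over 10000 bases (Ryr2, Ryr3 and Itpr2), or 60%, and for 7 of the 32 shorter members, or 21.9%. Among all genes tested, the same held for 107 of 213 transcripts over 10000 bases (50.2%) and for 3317 of 12830 shorter ones (25.9%). Across the 37 members the log2 difference of replicate 1 minus replicate 2 had a Spearman correlation with transcript length of 0.16 in melanotropes and 0.36 in corticotropes; across all 13043 genes the values were 0.0891 and 0.207. These correlations are across genes, which share their libraries and are not independent replicates.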
